A study of Homo sapiens with 6 samples.

Results

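The genes described here are 49 genes of DNA replication and the S phase of the cell cycle, chosen by name from what is known of the replication machinery and read on 6 arrays from linc00598 knockdown cells. They stand among 17225 genes and unnamed probes that passed a detection filter, of which 12192 carry a gene name. All 49 have at least 1 probe on the array, with 74 probes between them, and 48 were measured on all 6 arrays. The exception was CCNE2, which encodes a cyclin E. Its single probe was detected on 0 arrays (detection p from 0.810 to 0.909), so it has no level here and the counts below are over 48 genes.

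Knockdown of the long noncoding RNA linc00598 was compared with a control shRNA in stable lines of HEK293t cells, a human line from embryonic kidney that makes the large T antigen of SV40. All 3 lines carry a lentiviral shRNA, which is shCTL in the control and shlinc00598#2 or shlinc00598#3 in the knockdown lines, and no group lacks one. Each line was read on 2 Illumina arrays labelled replicate 1 and replicate 2, and the 6 arrays shared 1 BeadChip. The labels do not say whether the replicates came from separate cultures, so the p-values below measure the spread between these arrays, which may be technical. Each knockdown line is a single stable line, and no probe is named for LINC00598, so the depth of the knockdown was not read. Detected probes made up from 44.1% to 46.8% of an array. Of markers of HEK293 cells, VIM, KRT8, KRT18 and NEFM were detected on 6 arrays, at log2 intensities of 13.27, 9.62, 7.54 and 9.01. PAX2 was detected on 0. Markers of blood and endothelial cells (PTPRC, CD3E and PECAM1) were detected on 0 arrays and HBB on 1, while ALB and COL1A1 were detected on 6 at log2 intensities of 7.54 and 7.95.

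Before any comparison, a conflict between labels and values has to be stated. The authors deposited 2 tables, and in 4 of the 6 columns of the processed table the values belong to another array than the one the column is labelled with (Spearman rho of 1 with that other array, and from 0.925 to 0.941 with its own). The values here come from the non-normalized table, in which the sample descriptions name the column of each array. With the labels of the processed table, 18 of the 48 genes changed the sign of their mean log2 fold change, and each such value is given below with both labellings.

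Replication origins are prepared in G1 phase, when the origin recognition complex, CDC6 and CDT1 load the MCM ring onto DNA as an inactive helicase. In S phase CDC45 and the GINS complex join the ring and activate it, the clamp loader RFC places the sliding clamp PCNA, DNA polymerases copy the strands, and RPA covers the single strands laid bare. E2F transcription factors drive many of these genes at the G1 to S boundary, and histone supply and chromatin assembly run alongside. The arrays read RNA of whole cultures, so fewer cells in S phase and less of a transcript per cell cannot be told apart.

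Promoters of these genes are known for E2F sites, and the sequence before the start of each gene shows where such letters lie. Of the 49 genes, 41 have a promoter window in the RefSeq table of GRCh38.p14 (from 250 bases before the start that the table takes). The letters TTTCGCGC, TTTGGCGC and TTTCCCGC were searched for on both strands, and so was the shorter TTGGCGC, which also lies within TTTGGCGC. One or more of the 3 motifs of 8 letters was found in 15 of the 41 windows (36.6%), against 2.85% of the windows of all 27305 genes. TTTCCCGC was in 22% of the windows of the replication genes (1.7% of all), TTTGGCGC in 12.2% (0.681%), TTTCGCGC in 9.76% (0.542%) and TTGGCGC in 22% (3.11%). The 6 stretches printed here are those of MCM6, where 2 sites lie close together, and of 5 other genes. The brightest probe of each of these 5 had 1 sign in every comparison below. Capitals mark the motif letters on either strand, and in MCM6 the sites of both strands overlap. The stretches are chr2:135876517-135876600 on the minus strand for MCM6, chr7:100101398-100101457 (minus) for MCM7, chr1:52404424-52404483 (minus) for ORC1, chr2:10122349-10122408 (plus) for RRM2, chr19:4402576-4402635 (plus) for CHAF1A and chr20:33686386-33686445 (minus) for E2F1.
MCM6: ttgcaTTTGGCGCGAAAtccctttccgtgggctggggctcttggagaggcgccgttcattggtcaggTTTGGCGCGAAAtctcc
MCM7: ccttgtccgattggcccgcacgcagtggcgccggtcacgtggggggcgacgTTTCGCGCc
ORC1: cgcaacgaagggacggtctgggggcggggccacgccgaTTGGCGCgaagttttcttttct
RRM2: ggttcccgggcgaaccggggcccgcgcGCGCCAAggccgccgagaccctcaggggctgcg
CHAF1A: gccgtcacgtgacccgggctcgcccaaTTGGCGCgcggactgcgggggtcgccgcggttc
E2F1: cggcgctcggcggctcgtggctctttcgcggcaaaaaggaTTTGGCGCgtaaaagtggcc
In MCM7 the motif TTTCGCGC begins 9 bases before the start, in E2F1 TTTGGCGC begins 20 bases before it, and in ORC1 and CHAF1A TTGGCGC begins 22 and 37 bases before it. For ORC1 the start is that of the promoter table, which lies inside the longest annotated span of the gene (52372829 to 52409503). In RRM2 the letters lie on the other strand, 192 bases before the start. A match describes the letters only, and the arrays hold no measure of a factor on these promoters.

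To determine how the replication genes stood in the knockdown cells, intensities were quantile-normalized over the 6 arrays and then put on a log2 scale. They were compared with limma, with p-values adjusted over all 17225 genes and probes. As a group the genes lay near the median of all genes. The median log2 fold change of the 48 genes was 0.02 in shlinc00598#2 and 0.04 in shlinc00598#3. Taken as the mean of both lines it was 0.04, where the median of all genes was -0.00. Single genes ran from -0.22 (RFC4) to 0.64 (GINS4), with 31 above 0 and 17 below. No replication gene was called in either line, in their mean, or between the lines, at an adjusted p under 0.05 (0% of all genes in each of these comparisons). Before adjustment, 1 of them (RRM2) had a p under 0.05 in the mean contrast (1.91% of all genes did), 0 in shlinc00598#2 (1.83%), 2 in shlinc00598#3 (MCM4 and RRM2, 1.57%) and 1 between the lines (MCM4, 1.18%).

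With the replicate number as a block in the fit, still 0 of the 48 were called in each of the 4 contrasts, where 0.00581%, 0.0174%, 0.0232% and 0% of all genes were called for the mean, for shlinc00598#2, for shlinc00598#3 and between the lines. Before adjustment, 4 genes of that fit had a p under 0.05 in the mean contrast. GINS4, RRM2 and CDC6 were higher, where 6.12% of all genes were, and RFC4 was lower, where 7.58% were. On the same measure shlinc00598#2 had RRM2 higher (5.85% of all genes) and RFC4 lower (7.22%), and shlinc00598#3 had MCM4, GINS4 and RRM2 higher (5.11%) and 0 genes lower (6.55%). Between the lines, MCM4, GINS4 and RFC3 were higher in shlinc00598#3 (3.96%) and 0 were lower (4.64%). By the criterion that the study used, a difference of at least 1.4-fold, 0 replication genes were lower in both lines (0.284% of all genes) and 0 were higher in both lines (0.0581%). Taken from the mean of both lines, 0 were at least 1.4-fold lower (0.627%) and 1, GINS4, was at least 1.4-fold higher (0.261%). GINS4 fell short of that fold with the processed labels, where 0 of the 48 genes reached it. With an array left out and no block, it also fell short without shlinc00598#3 replicate 2 (log2 fold change 0.27) and without shCTL replicate 1 (0.47). With the block it was 0.94 without shCTL replicate 1.

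**Figure D1:**
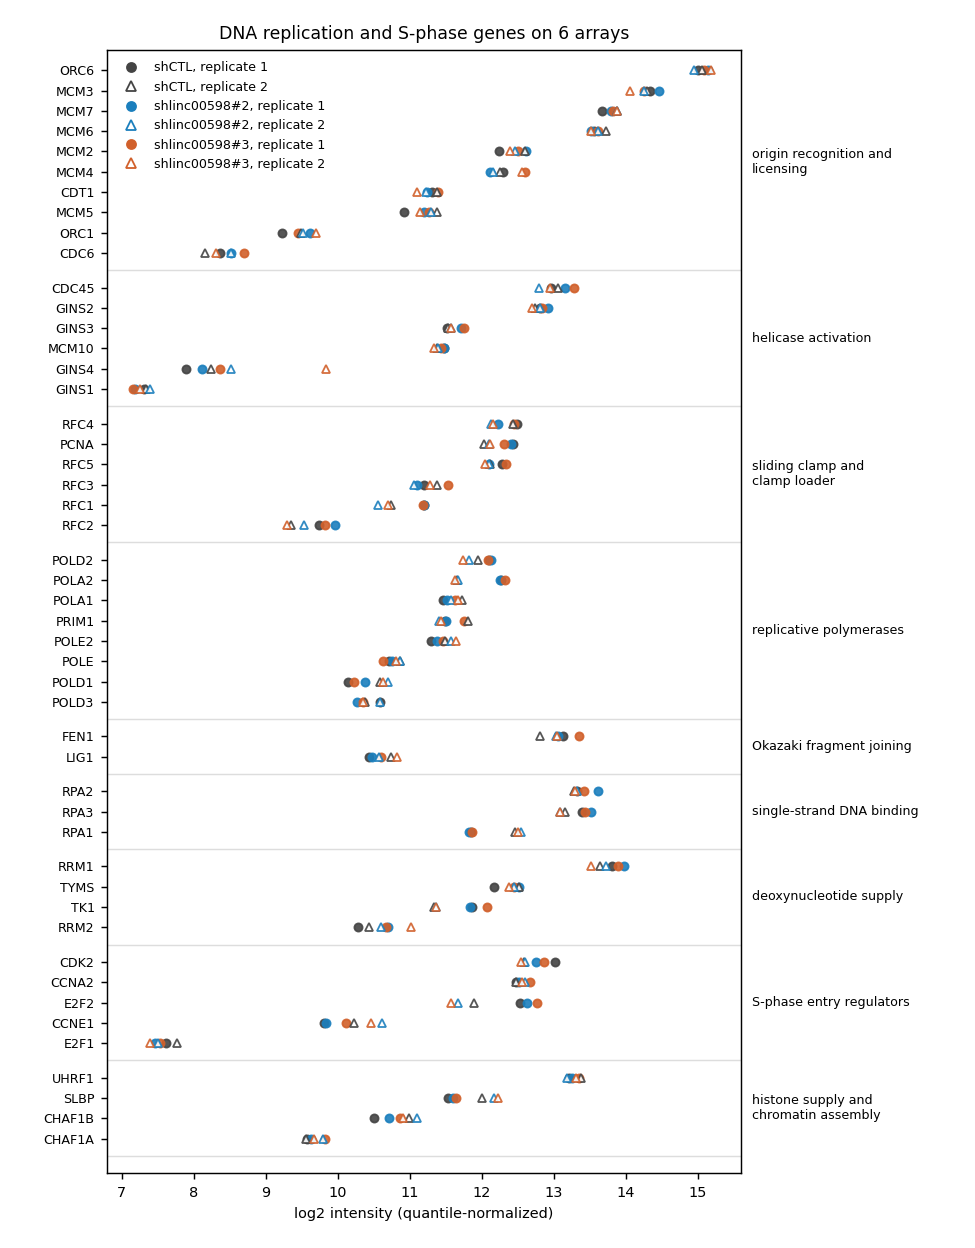
Log2 intensity of each of the 48 measured genes (x axis) on each of the 6 arrays, by role, with circles for replicate 1, open triangles for replicate 2 and a colour for each line. The 6 arrays of most genes lie close together, GINS4 in shlinc00598#3 replicate 2 lies apart at 9.84, and levels of different genes come from different probes and cannot be set against each other as amounts.

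The plot of all levels shows every array. The levels ran from 7.27 to 15.07 in the mean over arrays, and GINS1 and E2F1 lay close to the background, where folds are compressed. Several probes read the same gene in 19 cases. They had 1 direction in the mean of both lines in 14 of these and 1 direction between the replicates in 16.

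In the knockdown arrays, each set against the control array of its own replicate, more of the replication genes were higher throughout than lower throughout. Higher in all 4 such comparisons were 13 of 48 genes (27.1%, against 15.5% of all genes), and 2 were lower in all 4 (4.17%, against 16.1%). Both directions together made 15 of 48 (31.2%), against 31.7% of all genes. The 13 were ORC1, CDC6, MCM7, GINS3, GINS4, POLD1, POLE2, RPA2, RRM2, CCNE1, CCNA2, SLBP and CHAF1A, and the 2 were RFC4 and E2F1. These counts take the brightest probe of each gene, and the other probes of MCM7, CCNE1, SLBP and RFC4 were mixed in sign. Another probe of ORC6, of RFC2 and of RPA1 was higher in all 4, and another of MCM10 and of RFC1 was lower in all 4. Both lines share the control array of a replicate, so the 4 comparisons are not independent. The 4 knockdown arrays lay above both control arrays in 4 genes (8.33%, against 5.16% of all genes), which were GINS3, RRM2, CCNA2 and CHAF1A, and below both in 1, E2F1 (2.08%, against 5.56%). Under the processed labels the counts were 7 higher and 1 lower in all 4, where 6.08% and 5.87% of all genes were, and RRM2 was the only gene higher in all 4 under both labellings.

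**Figure D2:**
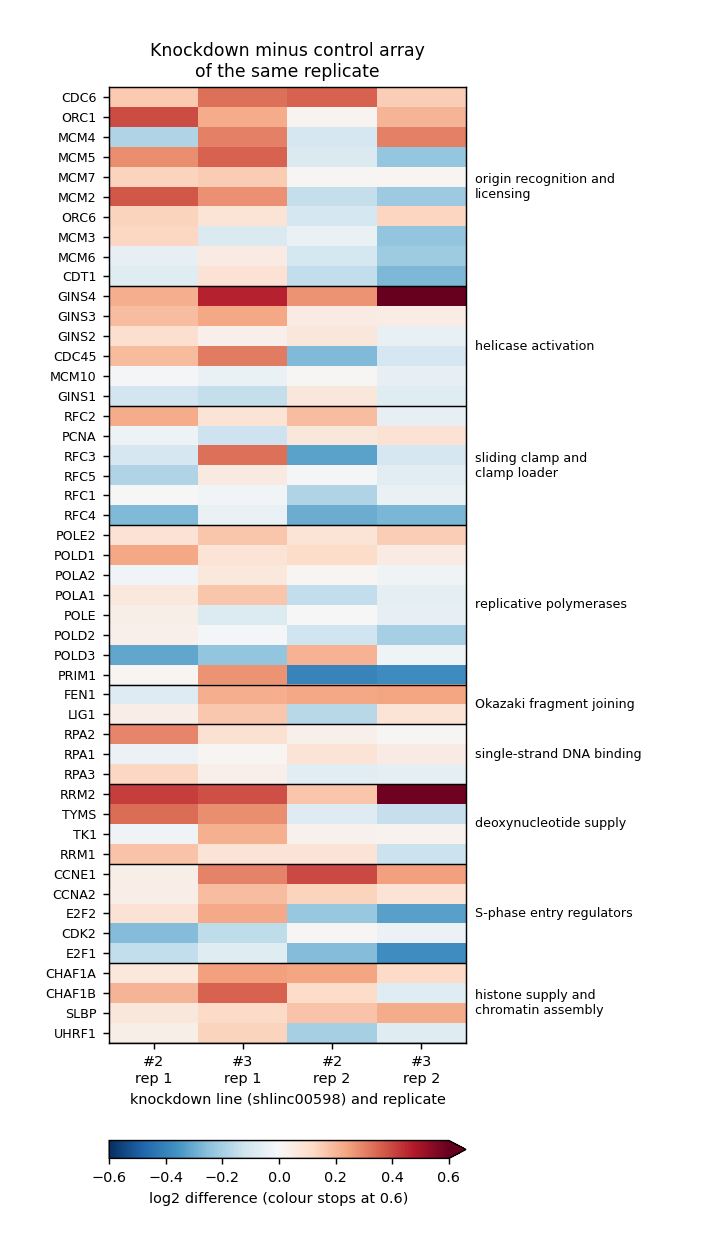
Log2 difference between a knockdown array and the control array of the same replicate (colour, stopping at 0.6) for 48 genes by role, in the 4 comparisons named below the columns. RRM2, GINS4, CCNE1 and SLBP are higher in every column and RFC4 and E2F1 lower, while MCM2, MCM5 and TYMS are higher in replicate 1 and lower in replicate 2.

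Among the 10 genes of origin recognition and licensing, 3 were higher in all 4 comparisons and 0 were lower, with a median log2 fold change of 0.07 in the mean of both lines. CDC6 encodes the loader that brings the MCM ring to the origin. Its log2 intensity in replicate 1 was 8.37 in shCTL, 8.52 in shlinc00598#2 and 8.70 in shlinc00598#3, and in replicate 2 it was 8.16, 8.51 and 8.31. Within each replicate both knockdown arrays lay above the control array, but shlinc00598#3 replicate 2 lay below shCTL replicate 1, so the groups overlapped. Its log2 fold change in the mean of both lines was 0.25, with a standard error of 0.10 and a limma adjusted p of 0.33 in the blocked fit, and it was -0.02 with the labels of the processed table.

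ORC1, the largest subunit of the origin recognition complex, read 9.23 in shCTL, 9.62 in shlinc00598#2 and 9.45 in shlinc00598#3 in replicate 1. In replicate 2 it read 9.50, 9.51 and 9.70. The control array of replicate 2 lay above a knockdown array of replicate 1, and in replicate 2 the shlinc00598#2 array was almost level with its control (difference 0.02). The log2 fold change of ORC1 was 0.21 (standard error 0.11, limma adjusted p = 0.43 with the block), and 0.20 with the processed labels. In the fit without the block it was 0.074 without shCTL replicate 1 and 0.34 without shCTL replicate 2. CDT1, which loads the MCM ring together with CDC6, read 11.31 in shCTL, 11.24 in shlinc00598#2 and 11.40 in shlinc00598#3 in replicate 1, and 11.38, 11.23 and 11.11 in replicate 2. It had a log2 fold change of -0.10 (0.010 with the processed labels) and differences of -0.07, 0.09, -0.15 and -0.27 in the 4 comparisons. ORC6, another subunit of the origin recognition complex, stood at 0.06, and a second probe, higher in all 4 comparisons, gave 0.14.

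Of the MCM genes, which encode the subunits of the replicative helicase, MCM2 and MCM5 stood above the control in both lines in replicate 1 and below it in replicate 2. The median of MCM2 to MCM7 against the control array was 0.13 in shlinc00598#2 and 0.21 in shlinc00598#3 in replicate 1, and -0.09 and -0.21 in replicate 2. With the arrays scaled to a common median, shlinc00598#2 in replicate 2 stood at 0.14, where the median of all genes shifted to 0.13, so that relative to all genes it was 0.01, and shlinc00598#3 in replicate 2 kept its direction at -0.23. MCM2 read 12.24 in shCTL, 12.61 in shlinc00598#2 and 12.51 in shlinc00598#3 in replicate 1, and 12.61, 12.46 and 12.39 in replicate 2. MCM5 read 10.92, 11.20 and 11.27 in replicate 1 and 11.38, 11.29 and 11.14 in replicate 2. In both genes the control array was the lowest array of replicate 1 and the highest of replicate 2. Their log2 fold changes in the mean of both lines were 0.07 and 0.08, with standard errors of 0.12 for each with the block. MCM7 was higher in all 4 comparisons with values from 0.01 to 0.15, while MCM3 and MCM6 stood at -0.06 and -0.08 in the mean of both lines. Other MCM7 probes stood at -0.06 and -0.03 in shlinc00598#3 replicate 2.

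MCM4 was the only replication gene in which the 2 knockdown lines lay on opposite sides of the control in both replicates. It read 12.30 in shCTL, 12.12 in shlinc00598#2 and 12.60 in shlinc00598#3 in replicate 1, and 12.26, 12.16 and 12.56 in replicate 2. The replicates of each line lay within 0.04 of each other and the 3 lines did not overlap. The log2 difference of shlinc00598#3 from shlinc00598#2 was 0.44 (standard error 0.10, limma adjusted p = 0.25 with the block), so the difference did not pass over all genes. Of all genes 2.57% had that pattern and 3.05% the reverse one, which 0 replication genes had. With the arrays scaled to a common median, shlinc00598#2 in replicate 2 stood at 0.14 and the pattern was lost. MCM2, MCM4, MCM5 and MCM7 were chosen after their values were seen.

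Of the 6 genes that activate the helicase, GINS4 had the largest difference of all 48 replication genes in the mean of both lines. GINS4, a subunit of the GINS complex (chromosome 8, 41529261 to 41545030), read 7.90 in shCTL, 8.12 in shlinc00598#2 and 8.36 in shlinc00598#3 in replicate 1. In replicate 2 it read 8.24, 8.51 and 9.84. Within each replicate both knockdown arrays were above the control, and shlinc00598#3 replicate 2 stood far above the other 5 arrays. The lines averaged 8.07 ± 0.24 for shCTL, 8.32 ± 0.28 for shlinc00598#2 and 9.10 ± 1.05 for shlinc00598#3 (SD, n = 2 each). The mean of both lines was 1.56-fold higher than the control (log2 fold change 0.64, standard error 0.20, limma adjusted p = 0.23 with the block). In the fit without the block the log2 fold change was 0.27 without shlinc00598#3 replicate 2, 0.47 without shCTL replicate 1 and 1.01 without shlinc00598#3 replicate 1. With the block it was 0.94 without shCTL replicate 1 and 0.92 without shlinc00598#3 replicate 1. The processed labels gave 0.44. With the block and arrays scaled to a common median GINS4 was called (log2 fold change 0.67, limma adjusted p = 4.23e-04, with 323 genes called in all), and adjusted p ran from 0.956 to 1 over 12 alternatives without the block.

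The other helicase activators stood closer to the control. GINS3, a partner of GINS4 in the complex, read 11.52 in shCTL, 11.71 in shlinc00598#2 and 11.75 in shlinc00598#3 in replicate 1, and 11.53, 11.58 and 11.57 in replicate 2. All 4 knockdown arrays lay above both controls, at a log2 fold change of 0.13 with a standard error of 0.09 (limma adjusted p = 0.57 with the block). GINS1 and GINS2, the remaining GINS subunits measured, stood at -0.07 and 0.04 (GINS2 at -0.012 with the processed labels). GINS1 lay near the background at 7.31, 7.19 and 7.16 in replicate 1 and 7.33, 7.40 and 7.26 in replicate 2, in the order of shCTL, shlinc00598#2 and shlinc00598#3. CDC45, which joins the MCM ring with GINS, was higher in both lines in replicate 1 (0.19 and 0.31) and lower in both in replicate 2 (-0.26 and -0.10), with a mean of 0.03. MCM10, an initiation factor, stood at -0.02, and its brightest probe differed from the control by at most 0.05 in any comparison. A second MCM10 probe was lower in all 4 comparisons, at -0.15, -0.16, -0.04 and -0.13, for a mean of -0.12.

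The sliding clamp and its loader had a median log2 fold change of -0.05, with 0 of 6 genes higher in all 4 comparisons and 1, RFC4, lower. RFC4, a subunit of the clamp loader, read 12.50 in shCTL, 12.23 in shlinc00598#2 and 12.45 in shlinc00598#3 in replicate 1, and 12.43, 12.13 and 12.16 in replicate 2. The array of shlinc00598#3 replicate 1 lay level with the controls, between their 2 values, and the other 3 knockdown arrays lay below both. The log2 fold change was -0.22 (standard error 0.09, limma adjusted p = 0.35 with the block), a second RFC4 probe gave -0.10, and the processed labels gave 0.00. PCNA, the sliding clamp, had a log2 fold change of 0.00, and RFC1, RFC2, RFC3 and RFC5, the other loader subunits, stood at -0.06, 0.11, -0.05 and -0.05. With the processed labels PCNA was at -0.050, RFC1 at 0.077, RFC2 at -0.029 and RFC3 at 0.19. RFC2 read 9.74, 9.96 and 9.82 in replicate 1 and 9.35, 9.53 and 9.30 in replicate 2, in the order of shCTL, shlinc00598#2 and shlinc00598#3. RFC1 read 11.20, 11.20 and 11.19 in replicate 1 and 10.74, 10.55 and 10.70 in replicate 2. In both genes all arrays of replicate 2 lay below all arrays of replicate 1.

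The replicative polymerases had a median of -0.01, with 2 of 8 genes higher in all 4 comparisons and 0 lower. POLE2, a small subunit of polymerase epsilon, read 11.29 in shCTL, 11.38 in shlinc00598#2 and 11.46 in shlinc00598#3 in replicate 1, and 11.49, 11.57 and 11.64 in replicate 2. POLD1, the catalytic subunit of polymerase delta, read 10.14, 10.38 and 10.22 in replicate 1, and 10.59, 10.69 and 10.64 in replicate 2. Every knockdown array of both genes lay above the control of its replicate, and the control of replicate 2 lay above all arrays of replicate 1. Both stood at 0.12 in the mean of both lines, with a standard error of 0.09 for each (limma adjusted p = 0.58 and 0.59 with the block). In the fit without the block the value for POLE2 was 0.022 without shCTL replicate 1 and 0.22 without shCTL replicate 2. For POLD1 it was -0.10 and 0.34 in that fit. PRIM1, the primase subunit that makes the RNA primer, read 11.49 in shCTL, 11.50 in shlinc00598#2 and 11.76 in shlinc00598#3 in replicate 1, and 11.81, 11.41 and 11.43 in replicate 2. It was above the control in replicate 1, by 0.01 and 0.27, and below it in both lines in replicate 2, for a mean of -0.12 (0.18 with the processed labels). POLD3, an accessory subunit of polymerase delta, had the reverse order in shlinc00598#2, at -0.31 in replicate 1 and 0.21 in replicate 2, and was chosen after its values were seen. POLA1, POLA2, POLD2 and POLE stood between -0.07 and 0.01, and POLD2 turned to 0.017 with the processed labels.

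FEN1, which trims the flaps of Okazaki fragments, had a log2 fold change of 0.15 and LIG1, which joins the fragments, 0.03. FEN1 read 13.13 in shCTL, 13.05 in shlinc00598#2 and 13.35 in shlinc00598#3 in replicate 1, and 12.81, 13.04 and 13.04 in replicate 2. It was below the control in shlinc00598#2 replicate 1 and above it in the other 3 comparisons, and the processed labels gave -0.02. LIG1 read 10.43, 10.47 and 10.60 in replicate 1 and 10.74, 10.58 and 10.82 in replicate 2, with shlinc00598#2 the lowest array of replicate 2. The single-strand binding genes RPA1, RPA2 and RPA3 stood at 0.03, 0.10 and 0.01. RPA2 read 13.32 in shCTL, 13.61 in shlinc00598#2 and 13.41 in shlinc00598#3 in replicate 1, and 13.29, 13.32 and 13.29 in replicate 2. It was higher in all 4 comparisons, by 0.29, 0.09, 0.03 and 0.01. RPA3 read 13.40, 13.52 and 13.43 in replicate 1 and 13.15, 13.08 and 13.09 in replicate 2, above the control in the first and below it in the second. With the processed labels RPA1 was at -0.035.

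Among the genes of deoxynucleotide supply, RRM2 was higher in every comparison. RRM2 encodes the small subunit of ribonucleotide reductase, which makes deoxynucleotides and is made in S phase (chromosome 2, 10122568 to 10211010). It read 10.28 in shCTL, 10.70 in shlinc00598#2 and 10.67 in shlinc00598#3 in replicate 1, and 10.43, 10.60 and 11.02 in replicate 2. All 4 knockdown arrays lay above both control arrays, while the ranges of the 2 knockdown lines overlapped. The lines averaged 10.36 ± 0.11 for shCTL, 10.65 ± 0.07 for shlinc00598#2 and 10.84 ± 0.25 for shlinc00598#3 (SD, n = 2 each). The mean of both lines was 1.31-fold higher (log2 fold change 0.39, 95% interval 0.14 to 0.63 with the block, limma adjusted p = 0.19 with the block). With 1 array left out and no block the value lay between 0.30 and 0.48, and it was 0.26 with the processed labels. With the block and arrays scaled to a common median RRM2 was called (log2 fold change 0.44, limma adjusted p = 0.031), and adjusted p ran from 0.956 to 1 over 12 alternatives without the block. The log2 fold change was 0.29 in shlinc00598#2 and 0.49 in shlinc00598#3, and the difference between the lines was not past the threshold (0.20, standard error 0.12, limma adjusted p = 0.69 with the block).

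The other genes of nucleotide supply stood closer to the control. RRM1, the large subunit of the same enzyme, had a log2 fold change of 0.05, with differences of 0.17, 0.08, 0.08 and -0.13, and turned to -0.010 with the processed labels. TYMS, which makes thymidylate, read 12.17 in shCTL, 12.51 in shlinc00598#2 and 12.45 in shlinc00598#3 in replicate 1, and 12.52, 12.44 and 12.38 in replicate 2. As in MCM2 and MCM5, the control was the lowest array of replicate 1 and the highest of replicate 2. TK1, the thymidine kinase of the salvage pathway, stood at 0.06. Its arrays read 11.86 in shCTL, 11.84 in shlinc00598#2 and 12.08 in shlinc00598#3 in replicate 1, and 11.34, 11.37 and 11.37 in replicate 2, so that replicate 2 lay below replicate 1 in every line.

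**Figure D3:**
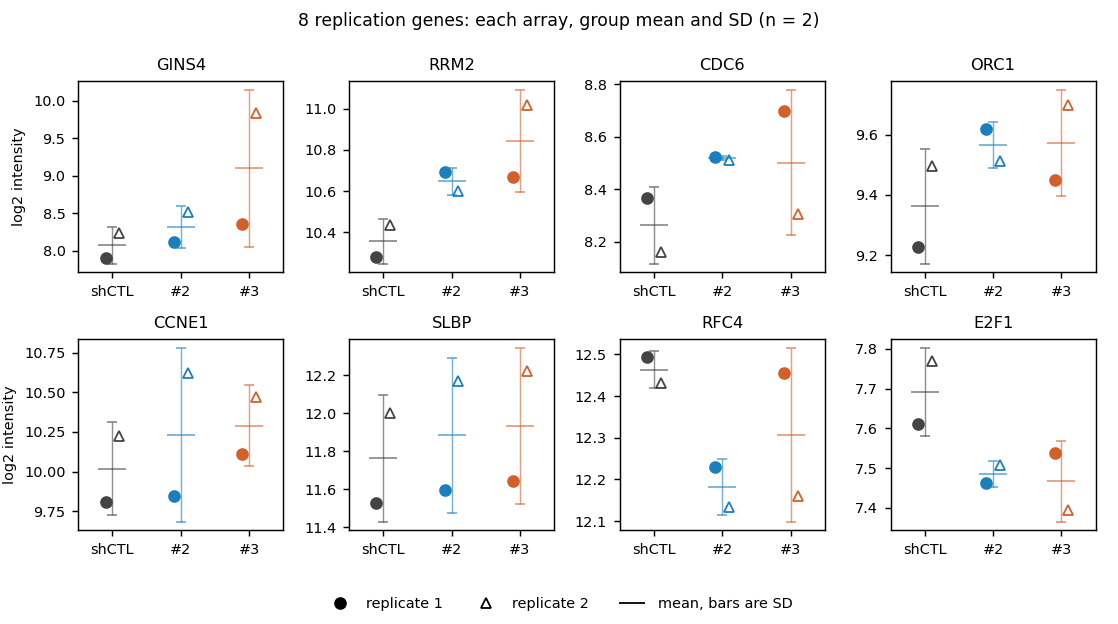
Log2 intensity of 8 replication genes on each array, with a panel for each gene, circles for replicate 1, triangles for replicate 2, a line for the group mean and bars for the SD (n = 2). In RRM2 all 4 knockdown arrays lie above both controls and in E2F1 all lie below, and in GINS4 the array of shlinc00598#3 replicate 2 lies above all others at 9.84.

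The plot of 8 genes by array shows genes with one sign in all 4 comparisons. They are not all of the largest differences, since SLBP (0.15) is plotted and CHAF1A (0.16) is not. Of the regulators of S-phase entry, CCNE1 and E2F1 stood on opposite sides of the control. CCNE1, the cyclin E1 that activates CDK2 at the G1 to S boundary, read 9.81 in shCTL, 9.84 in shlinc00598#2 and 10.11 in shlinc00598#3 in replicate 1, and 10.22, 10.62 and 10.47 in replicate 2. Each replicate had its control lowest, but the control of replicate 2 lay above both knockdown arrays of replicate 1. The log2 fold change was 0.24 (standard error 0.11, limma adjusted p = 0.37 with the block), and the processed labels gave -0.05. In the fit without the block it was 0.04 without shCTL replicate 1 and 0.45 without shCTL replicate 2. The difference between the replicates enters that fit. Within replicate 1 the mean of both lines differed from the control by 0.17, and within replicate 2 by 0.32. A second CCNE1 probe near the background (mean 7.05) gave 0.00.

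E2F1, a transcription factor that drives S-phase genes, read 7.61 in shCTL, 7.46 in shlinc00598#2 and 7.54 in shlinc00598#3 in replicate 1, and 7.77, 7.51 and 7.40 in replicate 2. All 4 knockdown arrays lay below both control arrays. The log2 fold change was -0.22 (standard error 0.10, limma adjusted p = 0.37 with the block), close to the background, and -0.02 with the processed labels. E2F2, another E2F factor, was above the control in replicate 1 (0.09 and 0.23) and below it in replicate 2 (-0.23 and -0.33), for a mean of -0.06 (0.11 with the processed labels). CCNA2, the cyclin A of S and G2 phase, read 12.48 in shCTL, 12.52 in shlinc00598#2 and 12.66 in shlinc00598#3 in replicate 1, and 12.47, 12.61 and 12.56 in replicate 2. It was higher in all 4 comparisons by 0.04, 0.19, 0.13 and 0.08, for a mean of 0.11 (0.01 with the processed labels). CDK2, the kinase that these cyclins activate, stood at -0.11.

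SLBP and CHAF1A were higher in all 4 comparisons among the genes of histone supply and chromatin assembly, which had the highest median of the 9 role groups (0.15). SLBP binds the stem-loop of histone messenger RNA and is needed for histone supply in S phase. It read 11.53 in shCTL, 11.60 in shlinc00598#2 and 11.64 in shlinc00598#3 in replicate 1, and 12.00, 12.17 and 12.22 in replicate 2. The difference between the replicates was larger than that between the lines. The log2 fold change of SLBP was 0.15 (standard error 0.09, limma adjusted p = 0.51 with the block), and a second probe gave 0.16. In the fit without the block the value was -0.09 without shCTL replicate 1, -0.00 without shlinc00598#3 replicate 2 and up to 0.38 with another array left out. CHAF1A and CHAF1B, subunits of the assembly factor that places new histones behind the fork, stood at 0.16 and 0.15 (CHAF1A at -0.012 with the processed labels). CHAF1A read 9.57, 9.63 and 9.82 in shCTL, shlinc00598#2 and shlinc00598#3 in replicate 1, and 9.55, 9.79 and 9.67 in replicate 2, with every knockdown array above both controls. CHAF1B read 10.51, 10.71 and 10.86 in replicate 1 and 10.98, 11.10 and 10.91 in replicate 2, above the control except in shlinc00598#3 replicate 2. UHRF1, which ties DNA methylation to the fork, stood at -0.03 (0.12 with the processed labels).

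The comparison of the replicates with each other shows how far the knockdown values of these genes recurred. Over the 48 genes, the difference of both lines from the control in replicate 1 correlated with that in replicate 2 with a Pearson r of 0.316 and a Spearman rho of 0.238, across genes, and over all genes the values were 0.253 and 0.230. Genes are not independent replicates, and all genes of an array share its labelling and hybridization. The sign was the same in both replicates for 29 genes (60.4%, against 57.7% of all genes). In replicate 1, 36 of the 48 genes were above the control (75%, against 50% of all genes), and in replicate 2, 23 were (47.9%, against 49.5%). The median of the 48 was 0.10 in replicate 1 and -0.00 in replicate 2.

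**Figure D4:**
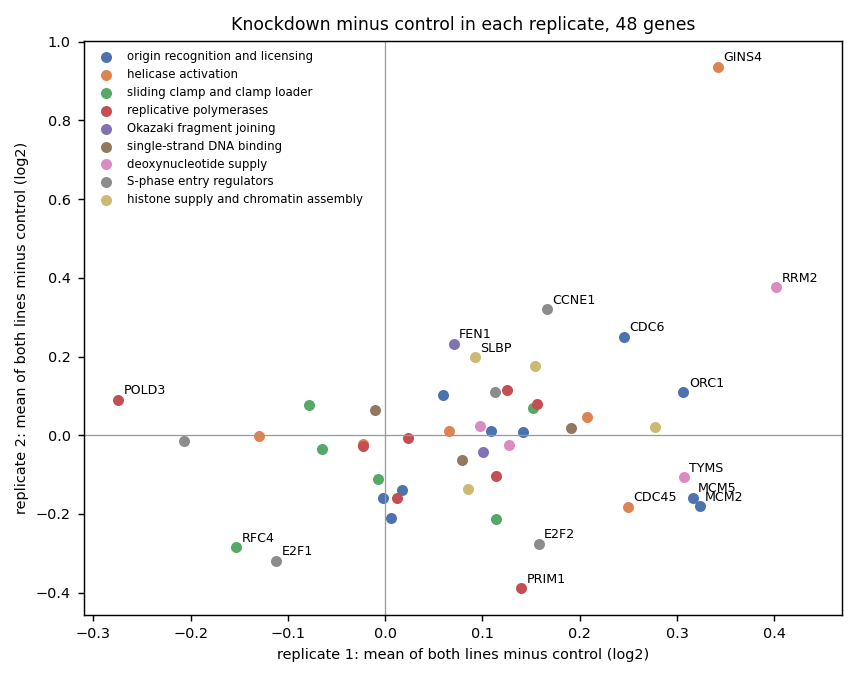
Log2 difference of the mean of both knockdown lines from the control in replicate 1 (x axis) and in replicate 2 (y axis) for 48 genes, coloured by role. GINS4 and RRM2 lie in the upper right, RFC4 and E2F1 in the lower left, and MCM2, MCM5, TYMS, CDC45, PRIM1 and E2F2 in the lower right, above the control in replicate 1 and below it in replicate 2.

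In 9 genes both lines were higher than the control in replicate 1 and lower in replicate 2 (18.8%, against 10.3% of all genes). These were MCM2, MCM5, CDC45, POLA1, PRIM1, RPA3, TYMS, E2F2 and UHRF1, and the reverse was seen in PCNA alone (2.08%, against 9.61%). In 7 of the 9 the control array of replicate 2 lay above that of replicate 1, and 2 did so in shlinc00598#2 and 1 in shlinc00598#3. The choice of the 9 genes fixes that order, because in each the control must rise more, or fall less, than either line. Which arrays carry the pattern cannot be read from these counts. MCM5, for example, was 0.46 higher in replicate 2 in shCTL, 0.09 higher in shlinc00598#2 and -0.13 in shlinc00598#3. With both lines pooled as the knockdown, limma called 0 of the 48 genes for a difference of the knockdown value between the replicates (0% of all genes, lowest adjusted p 0.80). Before adjustment 4 had a p under 0.05 (6.13% of all genes did), and MCM2, MCM5, PRIM1 and TYMS were these, each lower in replicate 2. That fit rests on 1 control array in each replicate and takes the difference between the lines as its spread. With the arrays scaled to a common median 2 of the 9 kept the pattern, and 6 did relative to the median of all genes. Averaging the probes of a gene left the pattern in 6 of the 9, and the second probes of POLA1, PRIM1 and UHRF1 did not have it. With the processed labels 1 of the 9 kept it, and 5 genes had it.

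Between the replicates, with the line held in the fit, 16 of the 48 genes were called by limma (33.3%, against 36.6% of all genes). Higher in replicate 2 were 6 genes (18.8% of all genes were) and lower were 10 (17.8% of all genes were). E2F2 fell the most, from 12.54 to 11.90 in shCTL, from 12.62 to 11.67 in shlinc00598#2 and from 12.77 to 11.57 in shlinc00598#3, a log2 difference of -0.93 (standard error 0.11, limma adjusted p = 3.41e-04). RPA1, the large subunit of the single-strand binding complex, rose from 11.86 to 12.46, from 11.82 to 12.54 and from 11.87 to 12.50 in the same order (0.65, standard error 0.08, limma adjusted p = 4.91e-04), and 2 other RPA1 probes gave 0.70 and 0.66. In both genes all arrays of a replicate lay on 1 side of all arrays of the other. The other genes higher in replicate 2 were GINS4 (0.74), SLBP (0.54), CCNE1 (0.52), POLD1 (0.39) and CHAF1B (0.30). The value of GINS4 was uneven over the lines, at 0.34 in shCTL, 0.40 in shlinc00598#2 and 1.48 in shlinc00598#3. The other lower genes were POLA2 (-0.63), which encodes the second subunit of polymerase alpha, TK1 (-0.57), RFC1 (-0.54), RFC2 (-0.45), RPA3 (-0.34), PCNA (-0.31), CDK2 (-0.30), POLD2 (-0.27) and RRM1 (-0.26). Of the 10 licensing genes 0 were called between the replicates by their brightest probe, and the values ran from -0.20 in CDC6 to 0.14 in MCM5. A second probe of ORC6 differed by -0.52 and a second probe of MCM7 by 0.37. Under the processed labels, calls between the replicates numbered 0 among the replication genes and 0% of all genes.

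**Figure D5:**
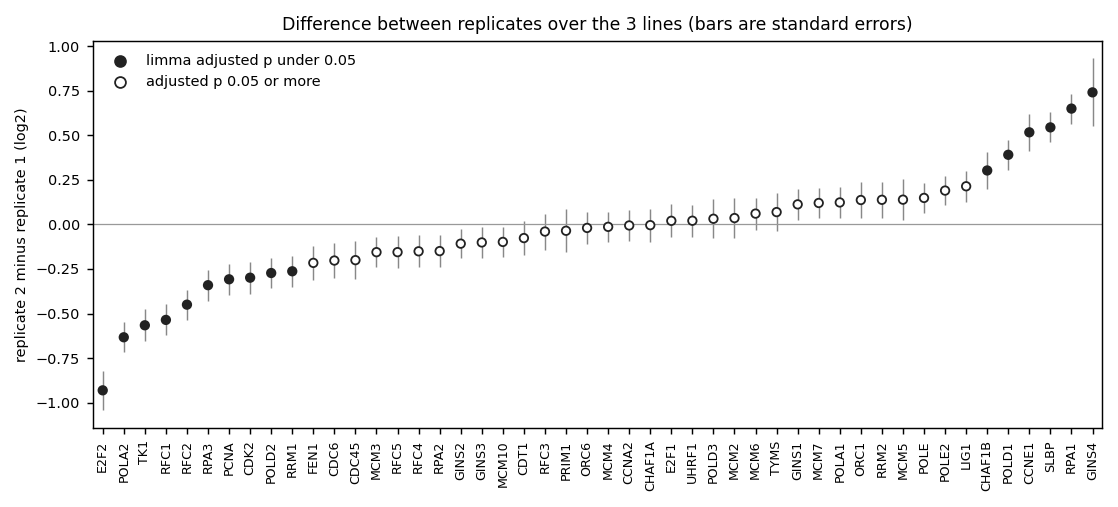
Log2 difference of replicate 2 from replicate 1 over the 3 lines for 48 genes (y axis), ordered by value, with standard errors as bars and filled points for a limma adjusted p under 0.05. The values run from -0.93 (E2F2) to 0.74 (GINS4), and 16 points are filled.

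The plot of replicate differences shows genes that differed between replicates while their knockdown values were small. POLA2 read 12.27 in shCTL, 12.25 in shlinc00598#2 and 12.33 in shlinc00598#3 in replicate 1, and 11.65, 11.66 and 11.63 in replicate 2. POLA2 and RPA1 differed between replicates by -0.63 and 0.65, and the mean of both knockdown lines differed from the control by 0.01 and 0.03. With the processed labels POLA2 turned to -5.78e-04.

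A further 54 genes of replication that are not among the 49 were read in the same way, of which 51 were measured. Their median log2 fold change was 0.07. In all 4 comparisons 14 stood above the control (27.5%, against 15.5% of all genes) and 2 below it (3.92%, against 16.1%). In the mean contrast without the block 0 were called (0% of all genes). NASP, a histone chaperone, stood at 0.34, MCMBP, which binds MCM proteins, at 0.28, and ORC4, a subunit of the origin recognition complex, at 0.25 (limma adjusted p = 0.20, 0.23 and 0.30 with the block). RBBP4, a histone-binding protein of the assembly factor, stood at -0.21, POLE3, a subunit of polymerase epsilon, at -0.18, and CHTF18, of an alternative clamp loader, at -0.17. Of 42 genes of G2 phase and mitosis, 41 were measured, with a median of 0.01. In all 4 comparisons 6 stood above the control (14.6%, against 15.5% of all genes) and 3 below it (7.32%, against 16.1%). Between the replicates 36.6% of the G2 and mitosis genes were called, 49% of the other replication genes and 36.6% of all genes. The lists were described by counts beside all genes and no difference between the lists was tested.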

How the data were processed

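Total RNA of the 3 HEK293t lines was hybridized to Illumina BeadChips by the authors, who exported the arrays with GenomeStudio v2011.1, as the submitters' processing notes give it. The non-normalized table deposited by the authors holds average probe intensities on a linear scale, and beside each intensity the authors deposited a detection p-value that GenomeStudio computed for the probe. The processed table deposited by the authors holds log2 values after their quantile normalization over the 6 arrays, and it served as an alternative because of its column labels.

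Quantile normalization of the log2 intensities, with the background left as it was, used limma 3.58.1 (R 4.3.3). The filter kept 21282 of 47321 probes, meaning those detected by both arrays of some line (p under 0.05), of which 5033 have no gene name. On the array as a whole 30113 probes have 1 gene symbol, 8 have several and 17200 have no symbol. Where several kept probes name the same gene, the brightest stood for it. The precision of every value is limited by how few arrays there are.

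A single limma fit of the 6 arrays to the 3 lines gave the contrasts, with Benjamini-Hochberg adjustment over all 17225 genes and probes. Arrays with the same replicate number deviated together, with correlations of 0.742, 0.760 and 0.827 for the 3 pairs of lines. The blocked fit has that number as a term and gave the contrast between replicates. The fits were tested on simulated data.

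The 49 genes, their role groups and the other lists were chosen with earlier results of these data known. Values by array are given for up to 3 genes of each of the 9 role groups with the smallest p in the blocked mean contrast, for genes called in a line contrast or at least 1.4-fold different, and for the 3 highest and the 3 lowest between replicates. Other genes complete the account of a role group or were chosen after their values were seen. Of the other replication genes, up to 3 in each direction are named by the same p. Alternatives were neqc background correction (offset 16), median scaling, the processed table by its labels, no detection filter, detection (p under 0.01) on all 6 arrays, averaging probes within genes, blocking on the replicate number, the methods' t-test and fold criterion, a fold of 1.2, and leaving out each array. The block together with median scaling, with neqc or with an array left out was added after seeing the data, as was the limma fit of the knockdown value by replicate. Coordinates and promoter sequences are those of RefSeq on GRCh38.p14.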

Additional observations from a re-analysis of the deposited data

Results flagged for a closer look

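MCM4 was below the control in shlinc00598#2 and above it in shlinc00598#3 on both arrays of each line, with a log2 difference between the lines of 0.44. A second MCM4 probe had the same order, at -0.03 and 0.37 in replicate 1 and at -0.18 and 0.29 in replicate 2. Because the lines moved in opposite directions in every sample the difference itself was tested, and limma gave it an adjusted p of 0.25 with the replicate as a block and of 1 without it. It was -0.09 with the labels of the processed table and 0.27 with the arrays scaled to a common median. Its cause was not tested.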

How the results depend on the processing

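The replicate number as a block left the count of replication genes called at 0 in each of the 4 line contrasts, and it changed no call of these. Choices added after seeing the data did. With median scaling and the replicate block the counts were 2 in the mean contrast (GINS4 and RRM2), 1 between the lines and 1 for shlinc00598#3 (GINS4 in both), and 0 for shlinc00598#2. With the block and an array left out, the counts ran from 0 to 1 in the mean contrast, for shlinc00598#3 and between the lines, and the gene was GINS4. It was called in all 3 without shCTL replicate 1 (0.94 in the mean contrast, limma adjusted p = 0.039, with 175, 186 and 185 genes called in all) or shlinc00598#3 replicate 1 (0.92, limma adjusted p = 0.041, with 8, 66 and 2), and between the lines without shCTL replicate 2 (185 in all). In such fits the single array left in a line is assumed to vary like the others. The cause was not tested.

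With neqc 10 genes were called between the replicates (29.3% of all genes), with the processed labels 0 (0%), and with an array left out from 11 to 14 (23.4% to 38.3%). The knockdown difference between the replicates had 0 of the genes called under every setting that could be fitted, which leaves out the settings without a control array. Lower in all 4 comparisons were 1 with the processed labels (POLD3) and 5 with the mean of the probes of a gene, and higher in all 4 were 7 with the processed labels. The median of shlinc00598#2 was 0.065 with the processed labels and 0.15 with median scaling. With that scaling the median of all genes in shlinc00598#2 shifted too, to 0.03 against the control in replicate 1 and 0.13 in replicate 2. Before adjustment the methods' t-test called 1 gene in the mean contrast, 2 for shlinc00598#2, 1 for shlinc00598#3 and 1 between the lines, and after Benjamini-Hochberg 0 in each. The share of all genes was not counted for that t-test, so its counts cannot be set against a background. At least 1.4-fold higher in the mean contrast was 1 gene (0.261% of all genes were). At least 1.2-fold higher in both lines was 1, where the share of all genes was not counted.

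With the processed labels 12 named genes changed direction: CDC6 (-0.018), CDT1 (0.010), RFC4 (0.0044), RFC2 (-0.029), RFC1 (0.077), PRIM1 (0.18), FEN1 (-0.021), RPA1 (-0.035), CCNE1 (-0.053), CHAF1A (-0.012), E2F2 (0.11) and POLA2 (-5.78e-04). With 1 array left out and no block, values passed 0 in RFC2 (-0.087 to 0.31), RFC1 (-0.29 to 0.17), POLD1 (-0.10 to 0.34), PRIM1 (-0.28 to 0.033), FEN1 (-0.011 to 0.31), LIG1 (-0.12 to 0.18), RPA1 (-0.27 to 0.33), RPA3 (-0.11 to 0.13), TYMS (-0.072 to 0.27), TK1 (-0.20 to 0.32), SLBP (-0.092 to 0.38), CHAF1B (-0.088 to 0.39), E2F2 (-0.38 to 0.26) and POLA2 (-0.30 to 0.32). Values that kept their direction but moved by over 1.5 times were those of CDC6 (0.14 to 0.35), ORC1 (0.074 to 0.34), CDT1 (-0.17 to -0.030), GINS4 (0.27 to 1.01), GINS3 (0.082 to 0.17), GINS1 (-0.12 to -0.014), RFC4 (-0.29 to -0.15), POLE2 (0.022 to 0.22), RPA2 (0.031 to 0.18), CCNE1 (0.037 to 0.45) and E2F1 (-0.29 to -0.14). The difference between the replicates enters these fits. The other 323 values of named genes kept their direction, with no call in any. Counts over all 4 comparisons have no value with an array left out. Genes near the background, such as GINS1 and E2F1, have compressed folds, and 2 arrays a line limit what could be called.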
